A study of Mus musculus with 4 samples.

Results

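Type I interferons are secreted alarm proteins that bind a receptor of 2 chains on nearly every cell, and the kinases JAK1 and TYK2 on that receptor phosphorylate STAT proteins. The STATs join IRF9 in a complex called ISGF3, which binds a promoter element, the interferon-stimulated response element, and switches on the interferon-stimulated genes. Their products sense viral nucleic acid, block translation and viral entry, and feed back on the pathway itself. Many of them are transcribed at a low level without infection, and plasmacytoid dendritic cells, the specialised interferon producers of the spleen, keep several of them high at rest. A list of 47 such genes was followed here by symbol. Of these, 46 were among the 17300 genes of the deposited table, and Ifi44l was not analysed here. A filter on low values, which required a mean at least 1 log2 unit above the table's lowest value, was passed by 45, and Cxcl10 did not pass it.

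The RNA came from dendritic cells sorted by flow cytometry out of mouse spleen, in 4 libraries. The genotype is labelled KO for 2 of them and WT for the other 2, and the sample titles call the KO samples EKO. The series title names Siglec-E, an inhibitory lectin of myeloid cells that binds sialic acid, and transplant rejection. The numbers on the KO columns differ from those in the KO titles, so these libraries are named KO A and KO B, beside WT 1 and WT 2. The labels give no strain, age, sex, targeted allele, treatment or sort gate, and do not say whether each sample was a separate animal. The p-values therefore rest on the spread between these libraries alone, and whether the WT spread is between animals or technical is not known. WT 1 and WT 2 differed in summed counts of erythroid markers (3361 and 17167) and of immediate early genes (9279 and 35456). KO A and KO B differed in Y-linked RNA, as given below, and so do not read as repeats of the same sample. All columns begin with Allo, which the sources do not explain.

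The targeted gene Siglece had log2 values of 8.92 and 8.96 in the KO libraries and of 10.38 and 10.14 in the WT libraries, and fell by 1.32 (adjusted p = 0.0138 in limma), in the direction of the labels. Libraries held between 29002408 and 30952251 counts after the log2 scale was undone. KO A stood apart in Y-linked RNA, with 1019 summed counts over 4 genes against 9539 to 9994 in the other 3 libraries. Of these, Ddx3y held 65 counts in KO A against 3979 in KO B. Defining dendritic cell markers were present in all libraries, and all 8 of a short pan dendritic list were lower in KO (summed counts of 128948 to 137158 against 203857 to 205644). All 8 passed an adjusted p of 0.05 in limma, while 2.23% of all tested genes passed as lower. Of the conventional DC1 markers 2 of 8 passed as lower. Of the conventional DC2 markers 2 of 8 passed as lower, and 3 were higher in KO without passing.

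The response element can be read in the promoters of these genes. RefSeq windows on build GRCm38.p6, from 250 bases before to 50 bases after the start of transcription, were found for 37 of the 47 genes. The core of the element was searched as GAAA, any 2 letters and GAAA, or on the other strand as TTTC, any 2 letters and TTTC, with overlapping matches allowed. It stood in the window of 20 of the 37 (54.1%). Of all 27025 genes with a window, 3.99% held it. The following stretches, all upstream of the start, are shown because the results below turn on these genes or on copies of them. Each reads 5′ to 3′ on the gene's strand, and capitals mark the matched letters.
Rsad2, chr12:26456543-26456592, minus strand: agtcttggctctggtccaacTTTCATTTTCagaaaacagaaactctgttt
Bst2, chr8:71537567-71537622, minus strand: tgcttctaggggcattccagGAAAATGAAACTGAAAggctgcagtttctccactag
Oas1a, chr5:120907526-120907565, minus strand: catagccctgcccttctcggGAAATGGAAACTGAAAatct
Oas1g, chr5:120887614-120887651, minus strand: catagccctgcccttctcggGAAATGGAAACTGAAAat
Ifit1, chr19:34640765-34640833, plus strand: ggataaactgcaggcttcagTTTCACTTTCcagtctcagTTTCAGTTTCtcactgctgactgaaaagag
Ifit3, chr19:34583353-34583436, plus strand: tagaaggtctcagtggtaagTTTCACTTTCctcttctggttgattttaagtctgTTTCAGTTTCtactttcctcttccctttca
Ifit3b, chr19:34607749-34607832, plus strand: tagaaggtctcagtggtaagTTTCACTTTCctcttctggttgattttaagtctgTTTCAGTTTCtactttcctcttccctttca
Isg15, chr4:156200855-156200916, minus strand: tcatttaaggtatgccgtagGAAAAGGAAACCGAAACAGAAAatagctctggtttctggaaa

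Isg15 carried 3 overlapping matches, the first of them 78 bases before the start, and Bst2 carried 2, starting 130 and 124 bases before it. The stretches of Ifit3 and Ifit3b are the same letter for letter. Cmpk2, Isg20, Irf7, Irf9, Ifit2 and Ifi44 had a window without these letters, which says only that this spelling is absent from that window.

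Most interferon-stimulated genes did not differ between KO and WT beyond the spread of the libraries. In limma's test with Benjamini-Hochberg adjustment over all 11864 tested genes, 3 of the 45 tested members were higher in KO, 0 were lower and 42 did not pass an adjusted p of 0.05. Of all tested genes 4.69% passed as higher and 2.23% as lower, 6.93% in all. The share of members past the threshold was thus near that of all genes. The median KO minus WT difference was 0.07 log2 units over the members and -0.00 over all tested genes. An unadjusted p under 0.05 was seen in 9 of the 45 members and in 24.7% of all tested genes. Both KO libraries lay above both WT libraries in 10 members and below both in 7, against 28.1% and 28.2% of all tested genes, and in 28 members the groups overlapped.

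**Figure D1:**
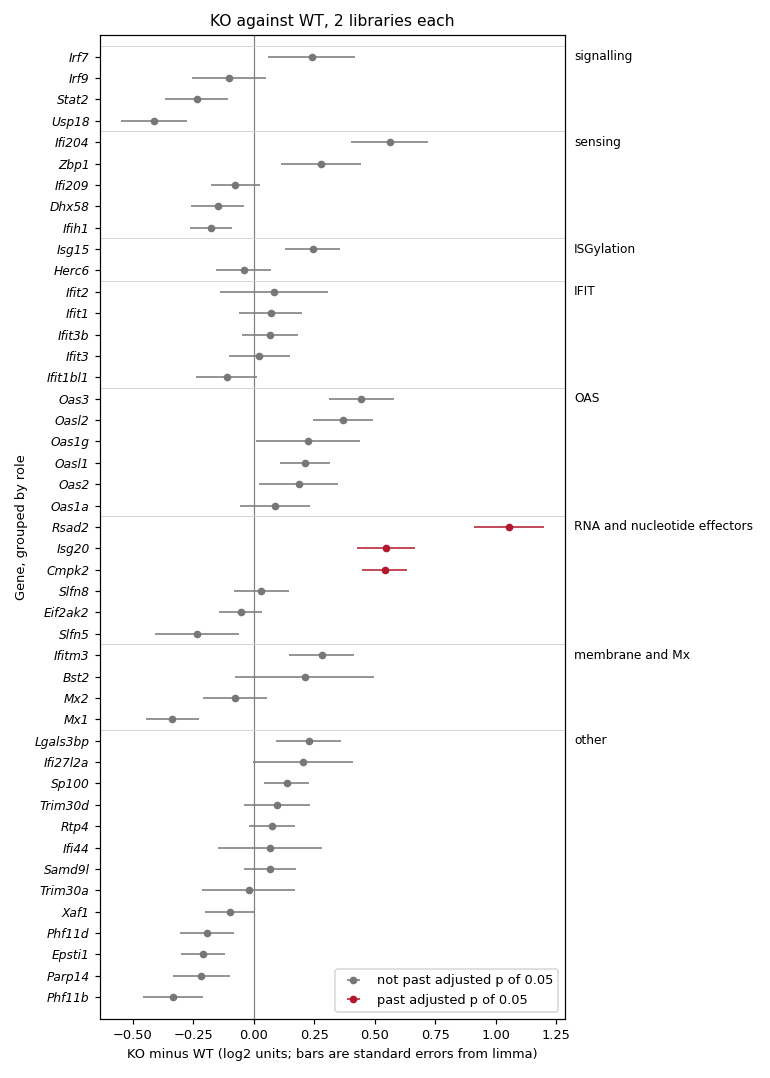
KO minus WT difference in log2 units for the 45 tested interferon-stimulated genes, grouped by role, with limma standard errors (2 KO and 2 WT libraries). Rsad2 at 1.05, Isg20 at 0.54 and Cmpk2 at 0.54 are the 3 past the threshold, and the other 42 lie on both sides of 0.

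KO A was above KO B in 41 of the 45 tested members, whereas it was above KO B in 50.4% of all tested genes. The median KO A minus KO B difference was 0.31 log2 units over the members and 0.00 over all tested genes. A difference of at least 0.5 in that direction was seen in 6 members (Bst2, Ifit2, Oas1g, Ifi44, Ifi27l2a and Irf7), and in 1.10% of all tested genes. KO A was the highest of the 4 libraries in 30 members and KO B the lowest in 25, against 25.8% and 27.9% of all tested genes. The WT libraries were split as well, with WT 2 above WT 1 in 34 members, against 53.5% of all tested genes, and a median WT 1 minus WT 2 of -0.13. With 1 library on each side, these are descriptions of the libraries and carry no test.

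Each KO library against the WT mean therefore gave an opposite picture. KO A was above the WT mean in 33 of 45 members (51.9% of all tested genes), with a median of 0.21. KO B was above it in 13 (47.8% of all tested genes), with a median of -0.12. The KO mean averages these.

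**Figure D2:**
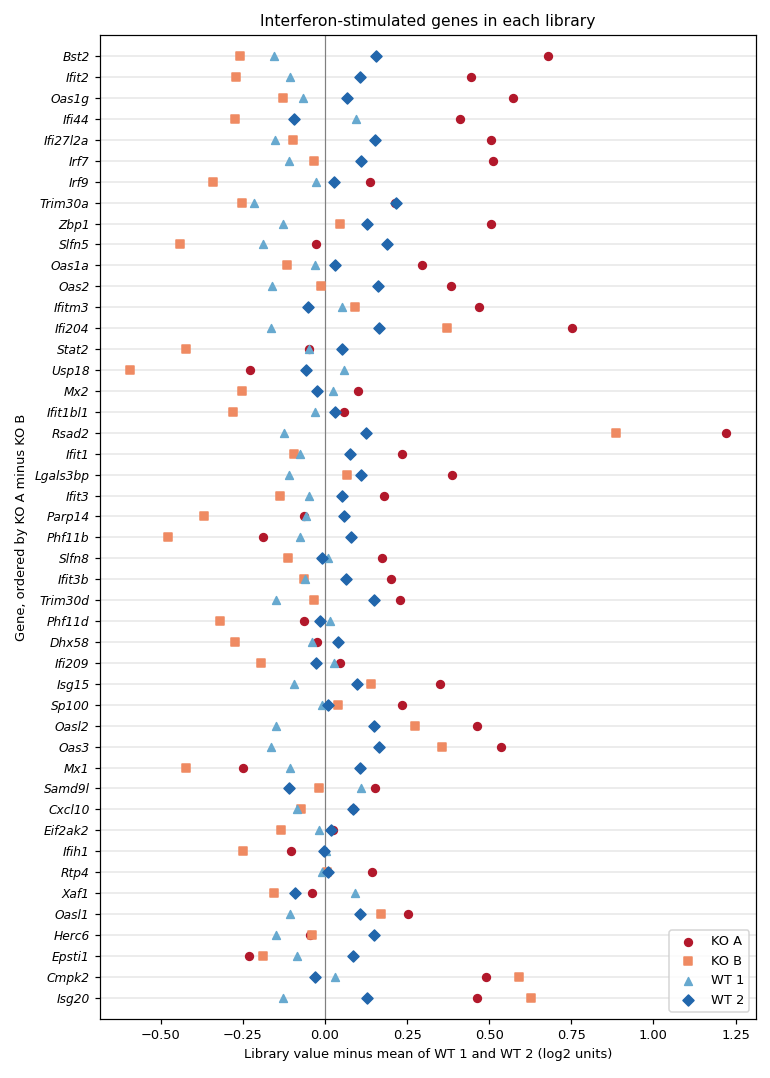
Value of each library minus the mean of WT 1 and WT 2, in log2 units, for the 46 interferon-stimulated genes in the table, ordered by KO A minus KO B. Dark red circles (KO A) lie right of orange squares (KO B) in all but 4 genes, Isg20, Cmpk2, Epsti1 and Herc6. Both KO markers lie right of both WT markers in 10 genes, Rsad2, Isg20 and Cmpk2 among them, against 28.1% of all tested genes.

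In all 4 signalling and feedback genes among the members KO A was above KO B, and 0 of them passed between the groups. Irf7, the transcription factor that amplifies interferon production, was at 12.29 (KO A), 11.75 (KO B), 11.67 (WT 1) and 11.89 (WT 2). KO A alone stood above the rest, and the KO minus WT difference of 0.24 (SE 0.180) did not pass (adjusted p = 0.465 in limma). Irf9, the DNA-binding partner of the STATs, was at 12.31 (KO A) and 11.83 (KO B), against 12.15 (WT 1) and 12.20 (WT 2). Here KO B alone stood below the others (difference -0.10, SE 0.154, adjusted p = 0.731). Stat2 had the same low KO B, at 11.88, with 12.25 (KO A), 12.25 (WT 1) and 12.35 (WT 2) (difference -0.24, SE 0.132, adjusted p = 0.325). Usp18, the protease that removes ISG15 from proteins and blocks the interferon receptor, was at 10.50 (KO A) and 10.13 (KO B), below 10.78 (WT 1) and 10.67 (WT 2). Its groups did not overlap, but the difference of -0.41 (SE 0.136) did not pass (adjusted p = 0.126), and it was the largest negative one among the members.

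Sensors of viral nucleic acid were a mixed group, with 0 of 5 past the threshold. Ifi204, a DNA sensor of the interferon-inducible p200 family, was at 12.39 (KO A) and 12.01 (KO B), against 11.47 (WT 1) and 11.80 (WT 2). Both KO libraries were above both WT libraries, with a difference of 0.56 (SE 0.159) that did not pass over all genes (adjusted p = 0.0902). The Ifi204 difference was 0.73 (adjusted p = 0.0247) without WT 2, 0.40 (adjusted p = 0.227) without WT 1, 0.37 (adjusted p = 0.271) without KO A and 0.75 (adjusted p = 0.120) without KO B. Its family member and neighbour Ifi209 differed by -0.08 (adjusted p = 0.703), and they share 0.132% and 0.0884% of their 31-base windows. Zbp1, a sensor of Z-form nucleic acid that can start necroptosis, was at 12.07 (KO A), 11.61 (KO B), 11.44 (WT 1) and 11.69 (WT 2) (difference 0.28, SE 0.165, adjusted p = 0.360). Only KO A stood out for Zbp1. Ifih1, which encodes the long double-stranded RNA sensor MDA5, was at 11.49 (KO A) and 11.34 (KO B), against 11.60 (WT 1) and 11.59 (WT 2) (difference -0.18, SE 0.088, adjusted p = 0.274). Dhx58, encoding the related helicase LGP2, was at 10.82 (KO A), 10.57 (KO B), 10.81 (WT 1) and 10.88 (WT 2), so that KO B was the low library (difference -0.15, SE 0.110, adjusted p = 0.457).

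Isg15, a ubiquitin-like protein that is joined to other proteins, was at 9.68 (KO A) and 9.47 (KO B), against 9.24 (WT 1) and 9.43 (WT 2). The groups came close to touching, and the difference of 0.24 (SE 0.114) did not pass (adjusted p = 0.247). Herc6, the ligase that attaches ISG15 in mice, was among the 4 genes without a higher value in KO A (11.61, against 11.62 for KO B), and it differed by -0.04 between the groups (adjusted p = 0.862).

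IFIT proteins bind viral RNA and hold it back from translation, and their 5 genes lie close together in the genome. None passed, with differences from -0.11 to 0.09 log2 units, while KO A was above KO B in all 5, by 0.27 to 0.72. Ifit2 was at 11.27 (KO A), 10.55 (KO B), 10.72 (WT 1) and 10.93 (WT 2), and KO A held 1968 counts to the 1021 of KO B (difference between the groups 0.09, SE 0.223, adjusted p = 0.858). The WT libraries lay between the KO libraries. Ifit1, which recognises RNA caps without 2′-O methylation, followed the same order with 9.93 (KO A), 9.60 (KO B), 9.62 (WT 1) and 9.77 (WT 2) (difference 0.07, SE 0.131, adjusted p = 0.793). Ifit3 was at 10.45 (KO A), 10.13 (KO B), 10.22 (WT 1) and 10.32 (WT 2) (difference 0.02, SE 0.126, adjusted p = 0.941). Ifit3 and Ifit3b are near copies: 61.8% of the 31-base windows of Ifit3 transcripts in GENCODE M21 also occur in Ifit3b, and 54.1% the other way. Their separate values are therefore uncertain, and they had similar differences between the KO libraries (0.32 and 0.27).

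OAS enzymes make 2-5A, a messenger of antiviral defence. KO A was above KO B in all 6 OAS genes and WT 2 above WT 1 in all 6, and 0 passed between the groups. Oas3, which has 3 OAS units in a row and is the main producer of 2-5A, was at 11.33 (KO A) and 11.15 (KO B), against 10.63 (WT 1) and 10.96 (WT 2). Both KO libraries were above both WT libraries, by 0.44 on average (SE 0.132, adjusted p = 0.101). Leaving out a library gave 0.61 (adjusted p = 0.0265) without WT 2 but 0.28 (adjusted p = 0.338) without WT 1, 0.35 (adjusted p = 0.299) without KO A and 0.54 (adjusted p = 0.179) without KO B. Oasl2, an OAS-like protein, was at 11.88 (KO A), 11.69 (KO B), 11.27 (WT 1) and 11.57 (WT 2) (difference 0.37, SE 0.125, adjusted p = 0.134). It was 0.52 (adjusted p = 0.0498) without WT 2, 0.22 (adjusted p = 0.469) without WT 1, 0.27 (adjusted p = 0.366) without KO A and 0.46 (adjusted p = 0.196) without KO B. Oas1g was at 9.88 (KO A), 9.18 (KO B), 9.24 (WT 1) and 9.37 (WT 2), a KO A value 2.83-fold that of KO B in counts (difference between the groups 0.22, SE 0.214, adjusted p = 0.572). Oas1a was at 10.76 (KO A), 10.35 (KO B), 10.44 (WT 1) and 10.50 (WT 2) (difference 0.09, SE 0.143, adjusted p = 0.754). KO A was the high library in both. Oas1a and Oas1g share 68.0% and 64.8% of their 31-base windows, so reads could be assigned to either.

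The 3 genes past the threshold fall in a group of 6 listed here as RNA and nucleotide effectors. The IFIT and OAS genes, whose products also act on RNA or nucleotides, were grouped apart, with 0 of 5 and 0 of 6 past it. Rsad2 encodes viperin, which makes a chain-terminating nucleotide that stops viral polymerases. It was at 11.25 (KO A) and 10.92 (KO B), against 9.91 (WT 1) and 10.16 (WT 2), which in counts was 1946 and 1445 against 507 and 678. The groups were far apart, and Rsad2 rose by 1.05 (SE 0.144, adjusted p = 0.0199), with 2.86-fold the WT counts. Cmpk2, a nucleotide kinase of mitochondria, lies beside Rsad2 in the genome. It was at 10.39 (KO A) and 10.49 (KO B), against 9.93 (WT 1) and 9.87 (WT 2), and it rose by 0.54 (SE 0.092, adjusted p = 0.0277), with 1.82-fold the WT counts. The KO libraries were close to each other here, with KO B the higher. Isg20, an exonuclease that degrades RNA, was at 10.00 (KO A) and 10.17 (KO B), against 9.41 (WT 1) and 9.67 (WT 2). It rose by 0.54 (SE 0.120, adjusted p = 0.0487), with 1.98-fold the WT counts, and lay just inside the threshold. Isg20 did not pass with quantile normalization (adjusted p = 0.0602), with median centring (adjusted p = 0.0543) or on the log2 scale of counts plus 1 (adjusted p = 0.0582).

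Without KO A, 0 members passed in limma and 0 of all genes did, with adjusted p = 0.0691 for Rsad2, 0.0779 for Cmpk2 and 0.108 for Isg20, while 13 of 45 members and 21.1% of all genes were under 0.05 unadjusted. With KO B left out, 0 members and 3 of all genes passed (adjusted p = 0.0851, 0.123 and 0.187 for Rsad2, Cmpk2 and Isg20), with 18 of 45 members and 20.6% of all genes at an unadjusted p under 0.05. Isg20 also did not pass without WT 1 (adjusted p = 0.129), nor Cmpk2 without WT 2 (adjusted p = 0.0538). The 3 differences kept their direction in each of these fits.

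Several marker lists of other spleen cells, but not all, had members that were higher in the KO libraries. Of all tested genes, 4.69% passed as higher. Macrophage markers passed as higher in 5 of 9 genes, with summed counts of 21542 to 26625 in KO against 11985 to 12470 in WT. Monocyte markers passed in 5 of 8, with 97036 to 98250 against 56236 to 57370, and NK cell markers in 7 of 8, with 12059 to 15000 against 5218 to 5615. Neutrophil markers passed in 3 of 8, at 116419 to 118938 in KO against 37953 to 94987 in WT. A list of dissociation and immediate early genes, which is not of a cell type, passed in 5 of 8, at 99283 to 112937 against 9279 to 35456. Nr4a1 passed and is counted both there and among the monocyte markers. Erythroid markers passed in 4 of 8, at 42023 to 62498 against 3361 to 17167. B cell markers passed in 0 of 6, with summed counts of 1232 (KO A), 2512 (KO B), 2522 (WT 1) and 1121 (WT 2). Of the 3 tested T cell markers Lck passed as higher, while Cd5 differed by -0.30 (adjusted p = 0.121). No marker of these lists was at the lowest value of the table in any library. Their part in the 3 differences was not tested. In RNA from bulk samples, a change in the share of a cell type and a change in RNA per cell cannot be told apart.

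Eif2ak2, encoding the kinase PKR that halts translation on double-stranded RNA, varied little, with 11.82 (KO A), 11.66 (KO B), 11.78 (WT 1) and 11.81 (WT 2) (difference -0.05, SE 0.090, adjusted p = 0.760). Slfn5 and Slfn8, neighbouring Schlafen genes, differed by -0.23 and 0.03 (adjusted p = 0.457 and 0.901), and in both KO A was above KO B, by 0.41 and 0.29.

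Among proteins that block virus entry, release or trafficking, Bst2 had the widest gap between the KO libraries of any member. Bst2 encodes tetherin, which holds budding virions at the cell surface and is also a surface marker of plasmacytoid dendritic cells in mice. It was at 11.31 (KO A), 10.37 (KO B), 10.47 (WT 1) and 10.78 (WT 2), in counts 2038 in KO A against 850 in KO B. KO A minus KO B was 0.94, rank 15 of all 11864 tested genes, and the difference between the groups was 0.21 (SE 0.287, adjusted p = 0.704). KO B and WT 1 were close to each other. Ifitm3, which stops virus fusion in endosomes, was at 12.48 (KO A) and 12.10 (KO B), against 12.06 (WT 1) and 11.96 (WT 2) (difference 0.28, SE 0.133, adjusted p = 0.254). Mx1, a dynamin-like GTPase that traps viral nucleoprotein, went the other way, with 11.81 (KO A) and 11.64 (KO B) against 11.96 (WT 1) and 12.17 (WT 2). Its groups did not overlap, and the difference of -0.34 (SE 0.108) did not pass (adjusted p = 0.121). Mx2 differed by -0.08 (adjusted p = 0.764).

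Cxcl10, a chemokine that attracts T and NK cells through CXCR3, was near the bottom of the table with 8.88 (KO A), 8.72 (KO B), 8.71 (WT 1) and 8.88 (WT 2), or 58 to 92 counts. It was not tested, and its values overlapped fully between the groups.

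Of the 13 remaining members, 0 passed. Ifi44, an interferon-induced cytoplasmic protein, had 384 counts (KO A), 122 (KO B), 242 (WT 1) and 175 (WT 2), so that KO A held 3.14-fold the counts of KO B (difference between the groups 0.07, SE 0.214, adjusted p = 0.885). Ifi27l2a, a small hydrophobic protein, was at 10.76 (KO A), 10.16 (KO B), 10.10 (WT 1) and 10.41 (WT 2) (difference 0.20, SE 0.206, adjusted p = 0.595). In both, KO A was the high library. Trim30a, a tripartite motif protein that restrains Toll-like receptor signalling, was at 12.59 (KO A), 12.13 (KO B), 12.17 (WT 1) and 12.60 (WT 2), so the high and the low library of each group matched each other (difference -0.02, SE 0.192, adjusted p = 0.965). Trim30a and Trim30d share 9.30% and 9.19% of their 31-base windows, so part of their reads is uncertain. The other 10 differed between the groups by -0.33 (Phf11b) to 0.23 (Lgals3bp). Phf11b and Phf11d share 28.7% and 11.6% of their 31-base windows, so part of their reads is uncertain. Both genes were lower in both KO libraries than in either WT library (adjusted p = 0.158 and 0.342 in limma). Epsti1 and Parp14 had the same order of groups (adjusted p = 0.214 and 0.316).

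For a rough comparison of levels between genes, counts were divided by the length of the longest coding transcript in GENCODE M21. The transcript in use may be another one, the annotation behind the counts is not given, and the counts of near copies are uncertain. In WT, Epsti1 with 6331 counts per kilobase and Ifitm3 with 5326 were the highest members, ahead of Sp100, a nuclear body protein, with 3016. Cxcl10 with 55.3 and Ifi44 with 71.7 were the lowest. Rsad2 and Cmpk2 were near each other in WT, at 157 counts per kilobase each, and stood at 448 and 286 in KO. Isg20 went from 291 to 578 counts per kilobase.

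Neighbouring members did not all share 1 pattern. The search took only genes annotated as coding, which left out Mx2, so no run could hold it. Members that lie next to each other, with no more than 2 coding genes between them, formed 10 runs. Among these were the 5 IFIT genes and the pairs of Rsad2 with Cmpk2, Oas2 with Oas3 and Ifi209 with Ifi204. In the run of Rsad2 and Cmpk2 the KO libraries were ordered differently, with KO A minus KO B at 0.34 for Rsad2 and -0.10 for Cmpk2. In the other 9 runs every member in the table was higher in KO A. Of the tested members with the response element letters in their window, 19 of 19 were higher in KO A than in KO B, with a median difference of 0.33. Of those with a window lacking them 12 of 16 were, with a median of 0.19, against 50.4% of all tested genes. The 19 include near copies, such as Ifit3 with Ifit3b and Oas1a with Oas1g, so they are not separate counts. The medians of WT 1 minus WT 2 were -0.13 and -0.11, and a part of the element in these values was not tested. The medians of KO minus WT were 0.07 and 0.08.

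Markers of plasmacytoid dendritic cells followed the same order of libraries as the interferon-stimulated genes. A list of 8 such markers, holding none of the 47 genes, was higher in KO A than in KO B in 8 of 8, by a median of 0.74 log2 units. WT 2 was above WT 1 in 8 of 8, with a median WT 1 minus WT 2 of -0.31. Siglech, a surface marker of these cells, was at 13.44 (KO A), 12.39 (KO B), 12.40 (WT 1) and 12.70 (WT 2), and Tcf4, their lineage transcription factor, at 13.80, 13.03, 13.06 and 13.38. None of the 8 passed between KO and WT and none was at the lowest value of the table. Their summed counts were 35399 in KO A, 24016 in WT 2, 19020 in WT 1 and 18472 in KO B. Summed counts of the 46 interferon-stimulated genes took that order too, with 123210, 114198, 102171 and 97554. The part of these cells, or of the difference in Y-linked RNA between the KO libraries, in the values of the interferon-stimulated genes was not tested.

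**Figure D3:**
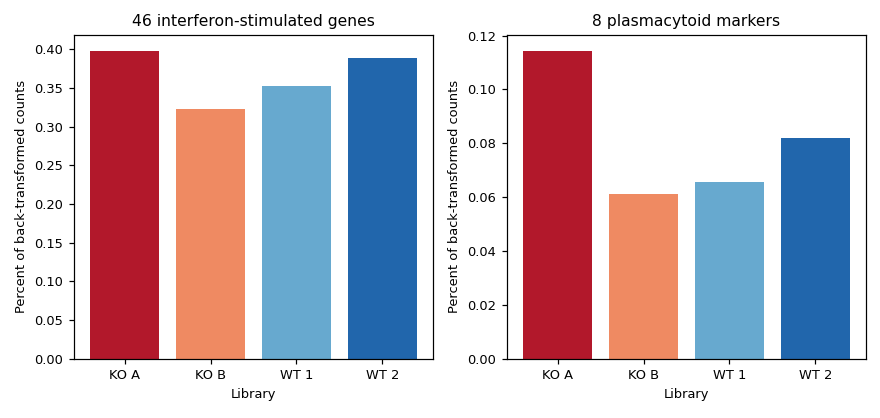
Share of all back-transformed counts, in percent, held by the 46 interferon-stimulated genes (left) and by 8 plasmacytoid dendritic cell markers that are not among them (right), 1 bar per library. The share ran from 0.322% in KO B to 0.398% in KO A on the left and from 0.0610% in KO B to 0.114% in KO A on the right.

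Other dendritic cell markers did not take that order throughout. Conventional DC1 markers were higher in KO A than in KO B in 8 of 8 genes, but by a median of 0.09. WT 2 was above WT 1 in 8 of 8 of them as well, with a median WT 1 minus WT 2 of -0.41, beyond that of the plasmacytoid markers. Their summed counts were highest in WT 2 (148111) and lowest in KO B (88696). Conventional DC2 markers were higher in KO A in 1 of 8. Macrophage and erythroid markers were higher in KO A in 0 of 9 and 0 of 8, and NK cell markers in 1 of 8.

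**Figure D4:**
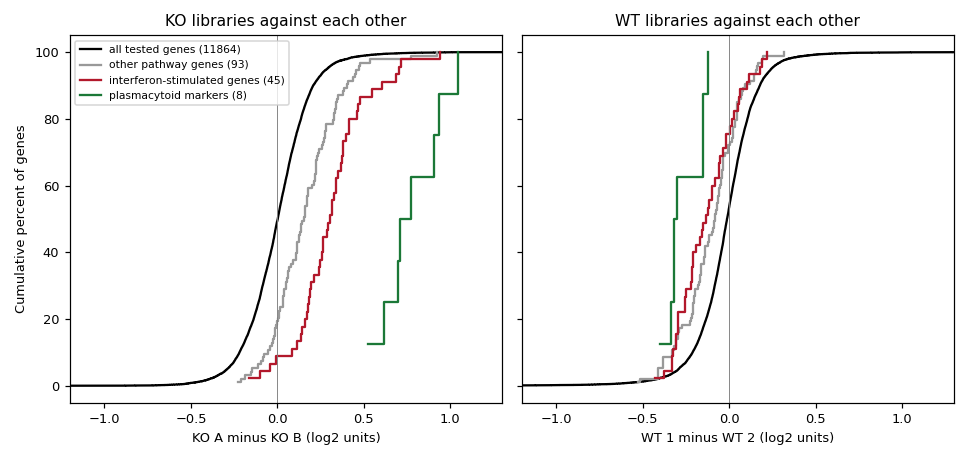
Cumulative percent of genes by KO A minus KO B (left) and WT 1 minus WT 2 (right), in log2 units, for all 11864 tested genes, 93 other genes of the interferon pathway, 45 interferon-stimulated genes and 8 plasmacytoid markers. Tcf4 is counted both among the other pathway genes and among the plasmacytoid markers. On the left the interferon-stimulated genes (median 0.31) lie right of all genes (median 0.00), with the other pathway genes between (0.15) and the plasmacytoid markers (0.74) farthest right; on the right the order is turned round.

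Other genes of the type I interferon pathway were taken from a list of ligands, receptor, kinases, regulators, sensors and further interferon-stimulated genes. Of its genes 96 were in the table and 93 were tested, of which 4 were higher in KO, 1 was lower and 88 did not pass, beside 6.93% of all tested genes. Their median difference was -0.00. KO A was above KO B in 75 of the 93, by a median of 0.15, and WT 2 above WT 1 in 67. Tcf4, also counted among the plasmacytoid markers, is among the 93.

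Of the ligand genes, Ifna16 and Ifnk were followed, and the other type I interferon genes were not analysed here. Ifna16 was at 8.30 to 8.60, too low for the test, and Ifnk differed by -0.09 (adjusted p = 0.608). The receptor genes Ifnar1 and Ifnar2 differed by -0.14 (adjusted p = 0.433) and 0.05 (adjusted p = 0.844). Of the kinases, Jak1 was at 13.81 (KO A) and 14.02 (KO B) against 13.53 (WT 1) and 13.39 (WT 2), a difference of 0.45 that came close to passing (SE 0.104, adjusted p = 0.0526), and Tyk2 differed by -0.09 (adjusted p = 0.501). Jak1 was the other way round from the interferon-stimulated genes within KO, with KO B the higher. Stat3 differed by 0.13 (adjusted p = 0.430).

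Besides Socs3, a feedback inhibitor of cytokine receptors that rose by 0.91 (adjusted p = 0.0233), the genes past the threshold that are described here were effectors. Slfn4, a Schlafen gene of myeloid cells, was at 12.33 (KO A) and 12.22 (KO B) against 11.40 (WT 1) and 11.34 (WT 2), and rose by 0.90 (SE 0.085, adjusted p = 0.0147). Slfn1 rose by 0.53 (SE 0.086, adjusted p = 0.0259). In these Schlafen genes the KO libraries stood together, unlike Slfn5 and Slfn8 above. Trim34a was the one gene of the list to fall, by 0.42 (SE 0.083, adjusted p = 0.0389), from 11.39 and 11.32 in WT to 10.93 and 10.94 in KO. Without KO A or without KO B, 0 of the 93 pathway genes passed in limma (25 and 22 of 93 at an unadjusted p under 0.05, beside 21.1% and 20.6% of all genes). Without WT 1 there were 3 and without WT 2 there were 2.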

How the data were processed

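Dendritic cell RNA from 2 KO and 2 WT samples was read with a stranded total RNA kit for small inputs, per the labels' protocols. The authors deposited variance-stabilized log2 values, scaled between libraries. For the authors' processing, Salmon 1.10.1, DESeq2 and GRCm39 are named per the submitters' processing notes, without roles. The annotation is not given in the sources used here. Low values are compressed, so log2 differences understate folds of weak genes. Counts were recovered by inverting the transform from the shared lowest value of 8.04, and they are scaled counts, not depth in reads.

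Symbols came from GENCODE M21 (17289 of 17300 identifiers matched) and promoter sequences from RefSeq on GRCm38.p6. These are older builds than the authors', and no coordinates were joined to the table. The 11864 genes whose mean exceeded the lowest value by 1 log2 unit or more were tested. The model was limma 3.58.1 (R 4.3.3) with moderated, trended variances, and two-sided p-values were adjusted by Benjamini-Hochberg. The fit was tested on simulated data with values drawn independently for each gene and library, so differences shared by many genes were not covered. Alternatives were no filter, a filter of 2 log2 units, quantile normalization, median centring, no trend, log2 of counts plus 1, and leaving out each library.

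The members, lists and tests were chosen with earlier results of these data known. Members named in full were those past the threshold, the 8 with the widest KO A minus KO B gap, the 5 with the largest difference not past it, and members set by role. Of the pathway list, genes past the threshold and receptor, kinase and STAT genes were named, except for some that are not reported here. Other members were named after their values were seen.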

Additional observations from a re-analysis of the deposited data

How the results depend on the processing

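No paired analysis was possible because the KO columns carry other numbers than the KO titles, so libraries could not be matched between groups. Leaving out each library in turn, the count of all genes past the threshold ran from 0 to 820, that of interferon-stimulated members from 0 (without KO A or KO B) to 5 (without WT 2), and that of other pathway genes from 0 to 3, each with fewer samples in the fit. The median KO minus WT of the members ran from -0.12 without KO A to 0.21 without KO B. Under the other 6 alternatives 2 or 3 members passed, and KO A stayed above KO B in 41 of 45 under both scalings, with a median KO A minus KO B of 0.30 to 0.42 over the 5 alternatives that bear on it. With quantile normalization all calls were 383 higher and 290 lower, in place of 557 and 265.

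Of 26 members named in full and tested, 12 changed sign under some alternative, and none of these passed in the main test or in any alternative. Leaving out a library gave -0.26 to 0.68 for Bst2, -0.13 to 0.025 for Eif2ak2, -0.10 to 0.51 for Ifi27l2a, -0.28 to 0.41 for Ifi44, -0.094 to 0.23 for Ifit1, -0.27 to 0.44 for Ifit2, -0.14 to 0.18 for Ifit3, -0.032 to 0.51 for Irf7, -0.34 to 0.14 for Irf9, -0.12 to 0.29 for Oas1a, -0.13 to 0.57 for Oas1g and -0.25 to 0.21 for Trim30a. Ifit3 was also at -0.0028 with quantile normalization and -0.0012 with median centring. The cause was not tested. Groups of 2 libraries limit all of these values, and library depth in reads is not known.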
